A study of Homo sapiens with 18 samples.

Results

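POU3F1, SOX3, OTX2, ZIC2 and SOX11 are 5 transcription factors that epiblast cells and the early neural plate share, and their RNA was followed in human embryonic stem cells exposed to Wnt3a. They were taken by name as a set of neural and epiblast regulators. All 5 are among the 10975 genes of the RPKM table of the first wild-type (WT) series, RPKM being read counts scaled for transcript length and library size. POU3F1, SOX3 and OTX2 are also among the 497 genes of the table that holds WT Rep. 2 and the SP5 mutants, whereas ZIC2 and SOX11 are not listed there. That second table was drawn from a list of Wnt3a-responsive genes made by the study, so being listed is itself tied to a response.

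The RNA-Seq cells were H1 (WA01), an established human embryonic stem cell line, grown in E8 medium on Matrigel. WT cells were collected without Wnt3a (0 h) and after 12, 24 and 48 h of 1 nM Wnt3a, once as the first WT series and once as WT Rep. 2. By the study's methods, untreated cells were given WNT storage buffer in the same volume. The SP5 mutant lines dZF1 and dZF2 were collected on the same schedule. Each mutant line is 1 expanded clone in which CRISPR-Cas9 removed the zinc-finger coding sequence from both SP5 alleles. RNA-Seq gave 1 library for each series and time, 16 in all. Of the 2 deposited SP5 ChIP-Seq peak lists, 1 is labelled untreated and 1 as 24 h of 1 nM Wnt3a. Yet both headers name the same ChIP library, labelled H9, another human embryonic stem cell line. Within each table a group is 1 library, so differences there were described without a test, as called where they reached 2-fold. Changes from 0 h in the 2 WT series and the 2 clones were tested together with limma. The tables hold no read counts, so the depth is unknown.

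Embryonic stem cells of human origin resemble the epiblast shortly before gastrulation, a tissue that can turn either to neural ectoderm or to the primitive streak. WNT signaling favors the streak and its descendants, mesoderm and endoderm. POU3F1 (also called OCT6) and the SOXB1 factor SOX3 are expressed in the epiblast and are then kept in the neural lineage, OTX2 marks epiblast, anterior neural tissue and anterior endoderm, ZIC2 is a zinc-finger factor of the epiblast and dorsal neural tube, and SOX11 is a SOXC factor of neural progenitors and young neurons.

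The genes lie on 5 chromosomes in GRCh37 (hg19). By GENCODE, POU3F1 spans chr1:38509501-38512465 on the minus strand, SOX3 chrX:139585150-139587234 on the minus strand, and OTX2 chr14:57266623-57283411 on the minus strand. ZIC2 spans chr13:100634038-100639019 and SOX11 chr2:5832516-5841517, both on the plus strand. OTX2 overlaps the antisense RNA OTX2-AS1, and SOX11 overlaps a long non-coding RNA gene on its own strand. The library kit kept strand, but the strand setting of the counting is not given in the sources used here, so the OTX2 and SOX11 values may include reads of these neighbors.

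The sequences shown are the SP5 peak and the promoters of the 2 members that fell past 2-fold in the first WT series. No link between sequence and level was tested. The first is 300 bases of the plus strand around the summit of the only SP5 peak found near these genes, at chr14:57322493-57322792 (GRCh37), upstream of OTX2. The other 2 are the 250 bases before the RefSeq start sites of POU3F1, at chr1:38046794-38047043, and SOX3, at chrX:140505070-140505319, both on the minus strand of GRCh38.p14. Capitals mark matches on either strand to GGGCGG, the GC box bound by SP factors, or to the related GGGAGG. On the strand printed, a match of the opposite strand reads CCGCCC or CCTCCC.
OTX2 peak: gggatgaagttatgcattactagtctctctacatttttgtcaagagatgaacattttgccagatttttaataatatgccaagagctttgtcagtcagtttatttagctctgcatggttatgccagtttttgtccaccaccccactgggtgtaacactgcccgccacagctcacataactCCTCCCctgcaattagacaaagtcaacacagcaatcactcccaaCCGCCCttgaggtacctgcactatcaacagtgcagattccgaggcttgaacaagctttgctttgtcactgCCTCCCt
POU3F1 promoter: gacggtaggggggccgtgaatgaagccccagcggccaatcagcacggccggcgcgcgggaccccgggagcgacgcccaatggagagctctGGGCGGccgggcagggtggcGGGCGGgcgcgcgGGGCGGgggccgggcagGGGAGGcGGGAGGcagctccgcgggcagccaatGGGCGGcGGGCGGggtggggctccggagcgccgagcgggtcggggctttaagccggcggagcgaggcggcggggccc
SOX3 promoter: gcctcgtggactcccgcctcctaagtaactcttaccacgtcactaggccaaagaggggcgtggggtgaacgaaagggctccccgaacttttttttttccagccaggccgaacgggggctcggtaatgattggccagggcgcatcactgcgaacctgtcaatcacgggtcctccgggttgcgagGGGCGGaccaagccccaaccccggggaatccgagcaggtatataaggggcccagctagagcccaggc

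The peak window held 1 GGGCGG and 2 GGGAGG, all 3 on the minus strand and all to the right of the summit, where they began 73, 29 and 143 bases from it. Windows of the same length around SP5 summits held GGGCGG in 48.1% and GGGAGG in 59.6% of 539 peaks. The POU3F1 sequence was rich in GC boxes, with 5 GGGCGG and 2 GGGAGG in the bases shown. Over the full 300-base RefSeq window, which runs 50 bases past the start, POU3F1 held 6 GGGCGG, a number reached by 2.86% of 35116 promoters. SOX3 held 1 GGGCGG and no GGGAGG, and 45% of all promoters held at least 1 GGGCGG. ZIC2 held 4 of each motif in its window, some of them overlapping. Of the 2 OTX2 promoters in RefSeq, the upstream one held 1 GGGAGG and the downstream one neither motif. These counts move with base composition, since G and C made up 82.3% of the POU3F1 window, 75.0% of ZIC2, 60.3% of SOX3, 49.7% and 50.3% of the OTX2 windows, and 45.3% of the peak window, against a median of 58.7% over all promoters. CTTTGAT, the site of the TCF/LEF factors that act with beta-catenin, was absent from all these windows and present in 2.62% of all promoters and 6.31% of summit windows. SOX11 had no promoter entry.

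In the first WT series POU3F1 and SOX3 declined with Wnt3a, OTX2 rose after 12 h, and ZIC2 and SOX11 stayed within 2-fold throughout. At 48 h the log2 change from 0 h, computed as log2 of RPKM plus 1, was -2.14 for POU3F1, -1.69 for SOX3, 1.46 for OTX2, 0.28 for ZIC2 and -0.21 for SOX11. The median over all 10975 genes was close to 0 at each time, at -0.01 at 12 and 24 h. All expression values given here come from bulk RNA, in which fewer cells of a type and less RNA per cell cannot be told apart.

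POU3F1, a POU domain factor, had levels of 30.8, 15, 9.7 and 6.2 RPKM at 0, 12, 24 and 48 h. Each library was lower than the one before, and the earliest step was the largest on the log2 scale, at -0.99 against -0.58 and -0.57. At 0 h it stood above 74.5% of listed genes, and at 48 h above 18.5% of them. A log2 change as large in size at 48 h was seen in 1.49% of genes, and 41 genes fell at least as far, POU3F1 included.

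SOX3, which shares its DNA-binding domain class and much of its role with SOX2, had levels of 14.2, 6.9, 5.3 and 3.7 RPKM over the same times. It followed the course of POU3F1 at a lower level, with log2 steps of -0.94, -0.33 and -0.42. At 48 h it stood above 5.94% of listed genes, and 77 genes fell at least as far. The POU3F1 and SOX3 levels at 12 h lay just inside the 2-fold limit, with log2 changes of -0.99 and -0.94, and both passed it when no pseudocount was added.

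OTX2, a homeodomain factor, had levels of 49.4, 41.5, 73 and 137.6 RPKM. Its log2 change was -0.25 at 12 h, inside 2-fold, and then gained 0.80 and 0.91 over the next 2 steps. A change as large in size at 48 h was seen in 3.63% of genes, and OTX2 moved from above 84.7% to above 96% of listed genes. At 0 h it was level with SOX11, and from 24 h on it was the higher of the 2.

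ZIC2 was measured at 91.8, 85.8, 113.7 and 111.5 RPKM at 0, 12, 24 and 48 h, and SOX11 at 49.2, 42.5, 45.7 and 42.5 RPKM. ZIC2 was thus the most abundant of the 5 per kilobase until 24 h, and OTX2 exceeded it at 48 h. Changes of the size seen at 48 h occurred in 48.3% of genes for ZIC2 and in 59.7% for SOX11. The SOX11 level moved within 42.5 to 49.2 RPKM. The order of levels at 48 h was OTX2, ZIC2, SOX11, POU3F1 and SOX3. With 1 library a time there is no replicate spread in RPKM against which neighbors in this order could be separated.

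No member was called at 12 h, where 1.22% of all genes were called higher and 0.738% lower. At 24 h POU3F1 and SOX3 were called lower, as were 1.36% of all genes, with 2.62% called higher. At 48 h POU3F1 and SOX3 were lower and OTX2 higher, beside 2.95% of genes lower and 4.87% higher.

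**Figure D1:**
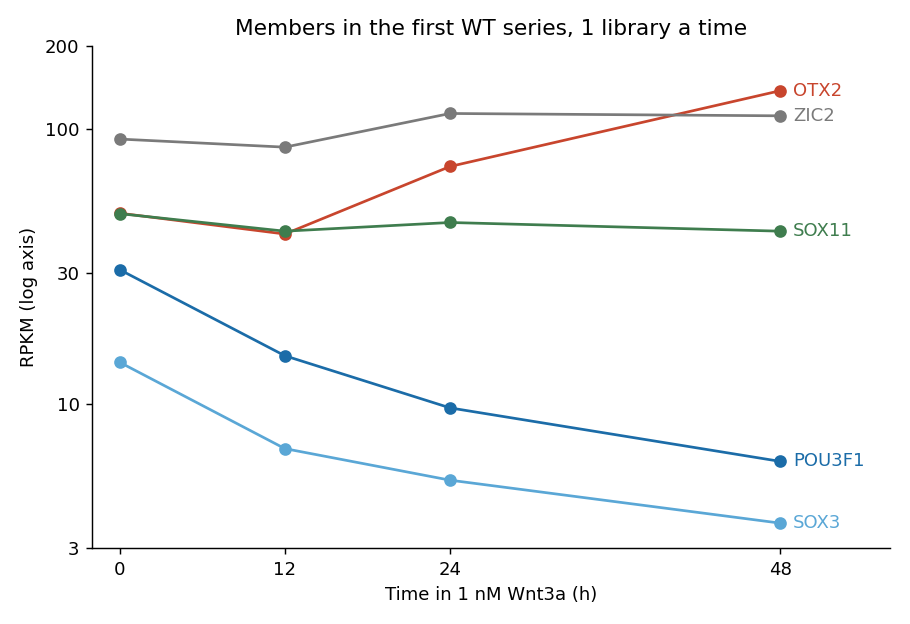
RPKM of the 5 genes (log axis) against hours in 1 nM Wnt3a in the first WT series, 1 library a point. POU3F1 runs from 30.8 to 6.2 and SOX3 from 14.2 to 3.7, OTX2 climbs from 41.5 at 12 h to 137.6, and ZIC2 and SOX11 stay nearly level.

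The genes whose course was closest to each member were found among 7931 genes with a highest RPKM of at least 10, as the Euclidean distance over 4 libraries of values scaled to the gene's own maximum. POU3F1 and SOX3 were each other's second nearest gene, at a distance of 0.083, and CHST8, encoding a carbohydrate sulfotransferase, was nearest to both. GPR176, ARC and METTL7A completed the list for POU3F1, and BOLA1, PDZRN3 and ARC that for SOX3. ARC, the activity-regulated cytoskeletal gene of neurons, was read at 12.8, 4.9, 3.4 and 3.3 RPKM. Nearest to OTX2 were MGST2 at 0.043, IL13RA1, EFNA2, MRC2 and SULF2. EFNA2, which encodes an ephrin, rose from 4.2 to 11.8 RPKM and the heparan sulfatase gene SULF2 from 4.6 to 14.5. ZIC2 was nearest to ZNF526, FBXL6, KDELC2, SETDB1 and TULP4, and SOX11 to ARHGEF12, BRD3, XPO6, KIAA1430 and SMARCE1. These 10 genes were nearly level, as were ZIC2 and SOX11 themselves. A distance over 4 libraries is a coarse likeness, and the libraries are shared by all genes.

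From the families of the 5 factors 14 further genes were looked up, of which SOX2, SOX4, SOX12 and ZIC5 are listed and 10 are not. The RPKM table begins at a highest RPKM of 4, and a gene that is not listed has no value. SOX2, the SOXB1 factor of both pluripotent and neural cells, was the only one of these 4 listed paralogs past 2-fold at 48 h, with 238.3, 212.8, 153.4 and 105.5 RPKM and a log2 change of -1.17. The listed SOXB1 genes were therefore both lower at 48 h, with SOX2 at 44.3% and SOX3 at 26.1% of their 0 h levels. ZIC5 was measured at 28.8, 22.5, 17.9 and 14.9 RPKM, inside 2-fold. The SOXC genes SOX4, at 221.4 and 168.2 RPKM at 0 and 48 h, and SOX12, at 58.7 and 50 RPKM, were inside 2-fold like SOX11. POU3F2, POU3F3, POU3F4, SOX1, SOX14, SOX21, OTX1, CRX, ZIC1 and ZIC4 were not listed.

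Of 32 genes of the neural plate and forebrain, 7 were listed and 25 were not, among them the neural plate markers PAX6, SOX1, LHX2, LHX5 and SIX3. CDH2, the N-cadherin gene, and MSX1, a homeobox gene of the neural plate border and of mesoderm, were the 2 called higher at 48 h, and none was called lower. CDH2 was measured at 16.7, 19.5, 44.2 and 63.3 RPKM and MSX1 at 0.5, 0, 0.8 and 11.4 RPKM, and neither gene is particular to neural tissue. HESX1, a homeobox gene of the anterior neural plate, read 13.6, 6, 5.6 and 7.1 RPKM, past 2-fold lower at 12 h and inside 2-fold at 48 h. GBX2, NES, TUBB3 and ZNF521 were also inside 2-fold at 48 h, GBX2 after a log2 change of 1.76 at 12 h. The median log2 change of the 7 was 0.29 at 48 h, against about 0 for all genes. At that time 4.87% of all genes were called higher and 2.95% lower.

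Of 16 genes of the primed epiblast, 14 were listed, with 1 higher, 3 lower and 10 inside 2-fold at 48 h and a median log2 change of -0.44. The 3 were CD24, a surface glycoprotein gene that fell from 1493.7 to 524.4 RPKM, THY1, from 195.7 to 95.4, and FGF2, from 38 to 18.5, which sits exactly at 2-fold. The gene called higher was again CDH2. Over all genes 2.95% were called lower and 4.87% higher at 48 h. DNMT3B, SALL2 and SFRP2 ended below their 0 h RPKM inside 2-fold, whereas SALL4 and ETV5 ended above it. FGF5 and UTF1 were not listed. POU3F1 fell further on the log2 scale than any listed gene of this list.

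The stem cell label was checked with 10 core pluripotency genes, all listed, whose summed RPKM was 2865.4, 2728.7, 2453.5 and 2052.4 over the 4 times. POU5F1 was at 294.6 RPKM at 0 h and 243.1 at 48 h, and NANOG at 3.3 and 3.4. SOX2 and PRDM14 were the 2 called lower at 48 h, beside 2.95% of all genes. PRDM14, a regulator that restrains differentiation, fell from 31.6 to 11.5 RPKM. Over the same hours the summed RPKM of 12 mesendoderm genes went from 7.6 to 131.3, 975.2 and 1271.5, and all 12 were called higher at 48 h. EOMES, MIXL1, SOX17, GATA6 and HHEX were listed at 0 at 0 h, and the others were T, GSC, FOXA2, LHX1, CER1, CXCR4 and MESP1, at 0.2 to 3.1 RPKM then. Their log2 changes at 48 h ran from 1.95 for MESP1 to 7.83 for CER1. Of 9 naive pluripotency genes 2 were listed, TBX3, from 0.1 to 12.2 RPKM, and DPPA5, from 4 RPKM to a listed 0. Of 8 fibroblast genes 3 were listed, summing to 213.7 RPKM at 0 h and 122.1 at 48 h, most of it THY1, which is also on the epiblast list. COL3A1, DCN, LUM, POSTN and TWIST2 were not listed. These marker sums moved alongside POU3F1, SOX3 and OTX2, and their part in the members' changes was not tested.

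**Figure D2:**
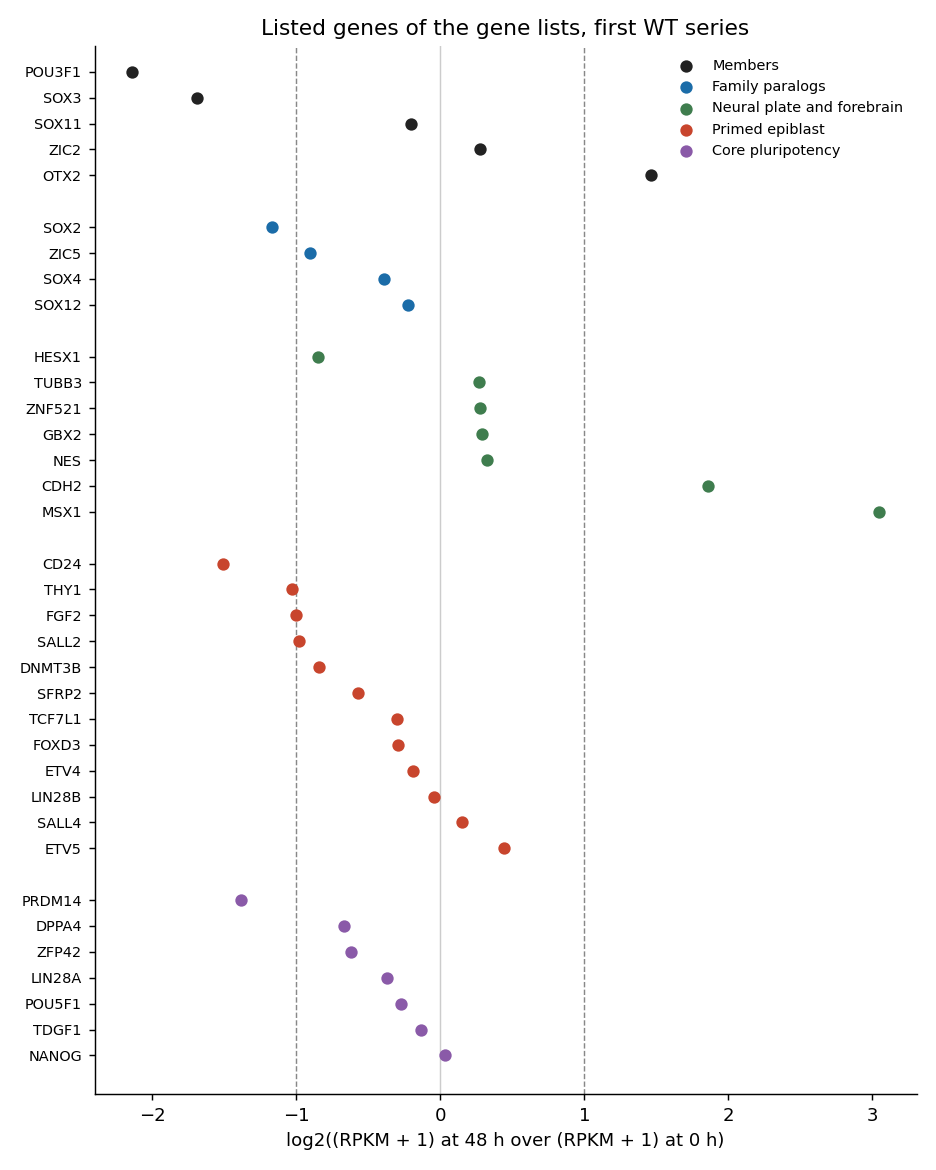
Log2 change in RPKM plus 1 from 0 to 48 h in the first WT series for every listed gene of the member, paralog, neural, primed epiblast and core pluripotency lists, each gene drawn once, with dashed lines at 2-fold. POU3F1 at -2.14 and SOX3 at -1.69 lie furthest to the left, and MSX1, CDH2 and OTX2 furthest to the right.

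The mutant table gives each gene relative to its highest RPKM in WT Rep. 2, which is set to 1. Both clones are compared with the same WT Rep. 2 library at each time, so their ratios are not independent, and log2 ratios were taken after adding 0.05. The mutated gene, SP5, read 0.02, 0.02, 0.09 and 1 in the WT Rep. 2 libraries over the 4 times. It read 0.01, 0.23, 0.90 and 2.54 in dZF1 and 0, 0.62, 0.75 and 2.61 in dZF2. In the first WT series SP5 was at 0, 49.8, 90.5 and 135.7 RPKM, on another scale. It was thus well above 0 at 12 h there, but near 0 until 24 h in WT Rep. 2, the comparator of both clones. The deletion removes only part of the transcript, so these whole-gene values do not check the genotype. Over both clones and all times, 3 member values were past 2-fold from WT Rep. 2, namely POU3F1 in dZF1 at 12 h, SOX3 in dZF2 at 24 h and SOX3 in dZF1 at 48 h. Each comparison of a clone at 1 time holds 3 members. In these comparisons 44 (dZF1 at 0 h) to 156 (dZF2 at 24 h) of the 497 genes were past 2-fold.

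POU3F1 stood at 1, 0.71, 0.75 and 0.91 in WT Rep. 2 over the 4 times, at 1.51, 1.64, 0.98 and 0.57 in dZF1, and at 1.99, 1.17, 1.24 and 0.60 in dZF2. Both clones were above WT at 0, 12 and 24 h and both were below it at 48 h, so that their lines crossed that of WT between 24 and 48 h. The log2 ratios to WT were 0.57 and 0.96 at 0 h for dZF1 and dZF2, 1.15 and 0.68 at 12 h, 0.36 and 0.69 at 24 h, and -0.63 and -0.56 at 48 h. The mean of both clones was 0.76 ± 0.27 (SD, n = 2) at 0 h and -0.60 ± 0.05 (SD, n = 2) at 48 h. Its call in dZF1 at 12 h stands beside 5.84% of the 497 genes called higher in that comparison and 6.84% lower. In dZF2 at 12 h, where no member was called, 6.64% of genes were higher and 8.05% lower.

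SOX3 stood at 1, 0.55, 0.53 and 0.40 in WT Rep. 2, at 0.54, 0.51, 0.37 and 0.12 in dZF1, and at 0.62, 0.44, 0.16 and 0.27 in dZF2. It was below WT in both clones at all 4 times, by -0.83 and -0.65 on the log2 scale at 0 h, without Wnt3a. The gap was smallest at 12 h, at -0.10 and -0.29. It reached 2-fold in dZF2 at 24 h, with a log2 ratio of -1.47, and in dZF1 at 48 h, with -1.40. In the same comparisons the other clone was at -0.47 and -0.49, and the clones differed from each other by 1 and 0.91 on the log2 scale, above the median of 0.39 and 0.21 over all genes. At 24 h 9.05% of genes were called lower in dZF2 and 4.63% in dZF1, and at 48 h 5.84% were called lower in dZF1 and 8.25% in dZF2.

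OTX2 stood at 0.74, 0.60, 0.74 and 1 in WT Rep. 2, at 0.79, 0.92, 0.91 and 1.66 in dZF1, and at 0.91, 0.63, 0.55 and 1.98 in dZF2. The 2 clones were on opposite sides of WT at 24 h, with log2 ratios of 0.28 and -0.40, and both were above it at 48 h, with 0.70 and 0.95. The mean at 48 h was 0.83 ± 0.18 (SD, n = 2), inside 2-fold. At 48 h 9.86% of genes were called higher in dZF1 and 11.3% in dZF2, while at 0 h the shares were 3.62% and 5.84% higher and 5.23% and 7.85% lower, with no member called.

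**Figure D3:**
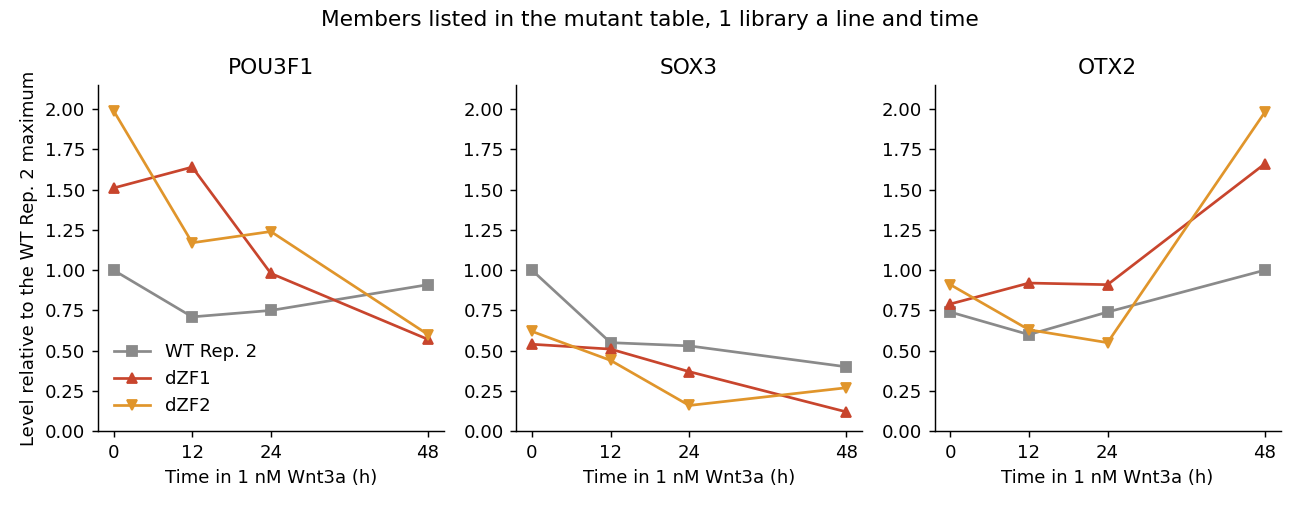
Level of POU3F1, SOX3 and OTX2 relative to the WT Rep. 2 maximum (linear axis) against hours in 1 nM Wnt3a, with 1 library a point and lines for WT Rep. 2, dZF1 and dZF2. POU3F1 of both clones crosses below WT by 48 h, SOX3 of both lies below WT at all times, and OTX2 of both ends above WT at 1.66 and 1.98.

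SOX2 was the gene of the mutant table that followed SOX3 most closely over its 12 libraries, with a Pearson correlation of 0.93 of log2 values, given as a description. SOX2 read 1, 0.81, 0.77 and 0.63 in WT Rep. 2, 0.71, 0.71, 0.63 and 0.35 in dZF1, and 0.62, 0.54, 0.26 and 0.41 in dZF2. Like SOX3 it was below WT in both clones at all times and, within dZF2, lowest at 24 h, where its log2 ratio of -1.40 was past 2-fold. DPYSL3, UGP2, JPH4 and PIPOX came next for SOX3. For POU3F1 the closest was MYCN at 0.93, encoding a MYC family factor of progenitor cells, followed by METTL7A, SLC1A3, POLR3G and ZDHHC22. METTL7A was thus near POU3F1 in both tables. For OTX2 the closest was KRT19 at 0.95, a keratin gene, followed by MANEA, FAM184A, FLRT3 and RHOBTB3. The 12 libraries are 3 time courses scaled to the same WT maxima, so the points share line, time and scale.

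Of the primed epiblast list, CDH2, CD24, SALL2, DNMT3B and THY1 are in the mutant table. None of the 5 was called in dZF1 at any time, and in dZF2 only THY1 was called, higher at 0 and 24 h. In those 2 comparisons 5.84% and 22.3% of all genes were called higher. At 48 h CDH2 read 1.79 in dZF1 and 1.56 in dZF2 against 1 in WT, inside 2-fold. PRDM14, of the pluripotency list, was below WT in both clones at all times. It was at least 2-fold lower in both at 12 and 48 h, with 1 in WT against 0.44 and 0.43 at 12 h. Over all genes 6.84% in dZF1 and 8.05% in dZF2 were called lower at 12 h, and 5.84% and 8.25% at 48 h.

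Mesendoderm genes, taken as a sum, stood above WT for each clone at each time. Their median log2 ratio was 0 in both clones at 0 and 12 h, where most values were near 0. In dZF1 at 0 h T alone read 0.46. For dZF1 and dZF2 the median was 1.77 and 2.72 at 24 h, and 1.06 and 0.98 at 48 h. SOX3 and SOX2 stood below WT throughout, whereas POU3F1 of each clone and OTX2 of dZF2 changed sides with time. Of 12 such genes 11 are in the table, and their values summed to 0.01, 0.30, 0.67 and 11 in WT Rep. 2, to 0.55, 0.55, 3.87 and 26.95 in dZF1 and to 0.27, 0.97, 14.54 and 28.36 in dZF2. At 24 h 7 were called higher in dZF1 and 8 in dZF2, beside 12.1% and 22.3% of all genes. The dZF2 library at 24 h, in which SOX3, SOX2 and OTX2 were at their lowest for that clone, thus had the highest mesendoderm sum at that time. The part of cell composition in the member values was not tested.

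Change from each series' own 0 h library does not depend on the scale of the table and sets the 2 WT series side by side. SOX3 fell past 2-fold by 48 h in all 4 series. Its log2 changes were -1.94 and -1.32 in the first and the other WT series and -2.17 and -1.20 in dZF1 and dZF2. The WT mean was -1.63 ± 0.44 and the clone mean -1.68 ± 0.69 (SD, n = 2 each), and the ranges overlapped. At 12 h the changes were -1.04 and -0.86 in WT and -0.08 and -0.49 in the clones. That was the only member and time at which WT and clones did not overlap, with the clones starting from a lower 0 h level.

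OTX2 was higher at 48 h than at 0 h in all 4 series, by 1.48 and 0.43 on the log2 scale in WT and by 1.07 and 1.12 in the clones, and only WT Rep. 2 was inside 2-fold. The clones lay between the WT series, and the clone mean exceeded the WT mean by 0.14. At 24 h the changes ranged from -0.73 in dZF2 to 0.56 in the first WT series, with WT Rep. 2 at its 0 h level.

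POU3F1 was the member on which the WT series disagreed. At 48 h it was at -2.31 in the first WT series and at -0.14 in WT Rep. 2, that is at 20.1% and 91% of the 0 h level, with the clones between them at -1.41 and -1.73. The WT series were thus 2.18 apart for POU3F1, against a median of 0.80 over 465 genes, and 7.96% of genes were at least as far apart. For OTX2 the gap was 1.04, reached by 37% of genes, and for SOX3 0.62, reached by 61.5%. A decline of POU3F1 past 2-fold by 48 h was therefore seen in 3 of 4 series. Both clones were lower against their own start than WT Rep. 2 and less low than the first WT series. In WT Rep. 2 the mesendoderm sum, of 11 genes each scaled to its maximum, was 0.67 at 24 h and 11 at 48 h. In the first WT series the summed RPKM of 12 mesendoderm genes was 975.2 at 24 h against 1271.5 at 48 h. The 2 sums are unlike measures. The part of timing in the POU3F1 difference was not tested.

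These changes were tested with limma on 457 genes with values in all 4 series at 48 h, with Benjamini-Hochberg adjustment over them. The fit takes a single spread for each gene over WT and clones, so its errors are not those of the WT series alone. At 48 h the SD was 1.54 in WT and 0.23 in the clones for POU3F1. For OTX2 it was 0.74 and 0.04, and for SOX3 0.44 and 0.69. The genes of the mutant table had been chosen by the study for their Wnt3a response in WT cells, so the WT test is not independent of that choice. SOX3 passed at 48 h in WT, with a log2 change of -1.63 (SE 0.37, limma adjusted p = 0.0212), as did 12.3% of genes in the lower direction and 45.3% in the higher. OTX2, at 0.96 (SE 0.36, limma adjusted p = 0.0636), and POU3F1, at -1.22 (SE 0.55, limma adjusted p = 0.102), did not pass. These calls rest on 1 series each way. Without the first WT series SOX3 did not pass (limma adjusted p = 0.104), and without WT Rep. 2 all 3 members passed, with limma adjusted p of 0.0279 for SOX3, 0.0152 for OTX2 and 0.0114 for POU3F1. A WT group of 1 library is then assumed to vary like the clones. At 12 and 24 h no member passed in WT.

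The clones did not differ from WT past the threshold in their change from 0 h for any member at any time. At 48 h the difference, clones minus WT, was -0.34 (SE 0.78) for POU3F1, -0.05 (SE 0.52) for SOX3 and 0.14 (SE 0.50) for OTX2, each with a limma adjusted p of 0.997. For SOX3 at 12 h it was 0.66 (SE 0.30, limma adjusted p = 0.981). These errors leave room for differences of 2-fold. Of the 462, 458 and 457 genes tested, 0 passed at 12 h, 1 at 24 h and 0 at 48 h. At an unadjusted limma p under 0.05 there were 11, 9 and 6. A gene at 0 in any library used could not be tested, among them the mesendoderm genes EOMES, MIXL1 and SOX17.

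**Figure D4:**
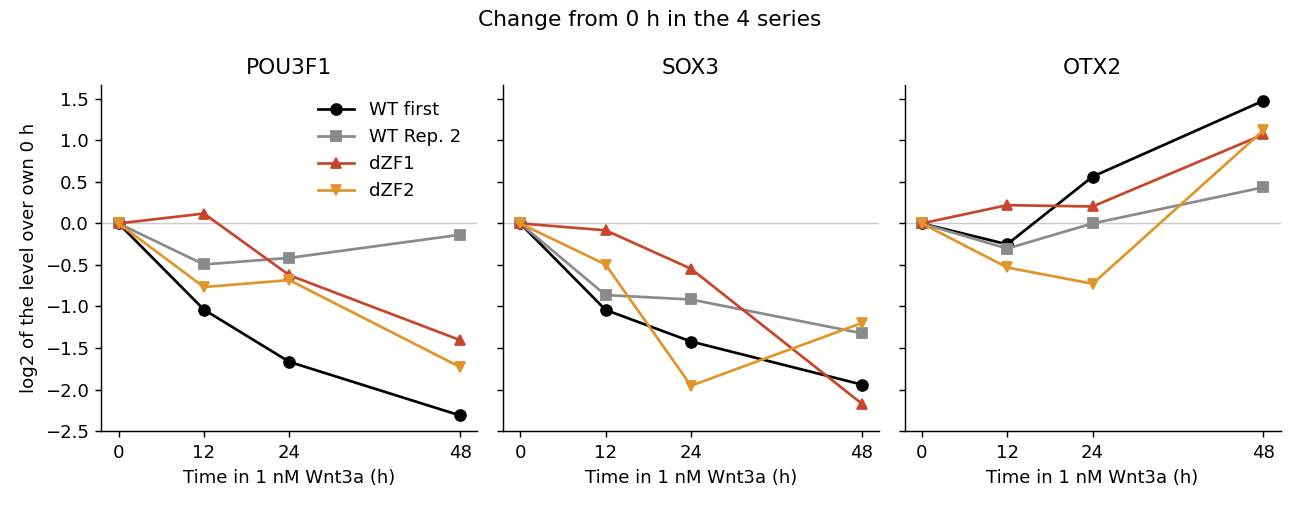
Log2 of the level over the same series' 0 h library for POU3F1, SOX3 and OTX2 in both WT series and both clones, 1 library a point. At 48 h SOX3 lies between -2.17 and -1.20 in all 4 series and OTX2 between 0.43 and 1.48, whereas POU3F1 ranges from -2.31 to -0.14.

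**Figure D5:**
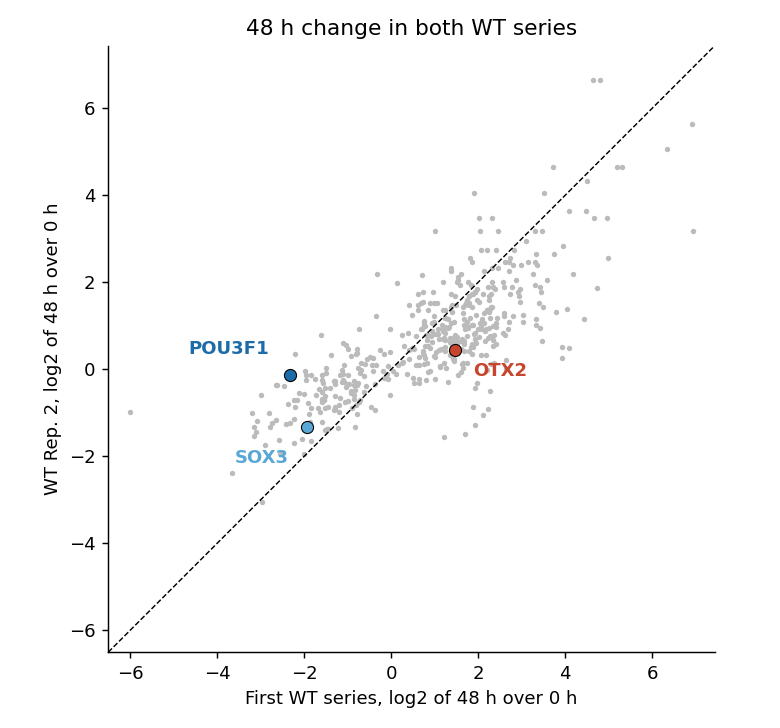
Log2 change from 0 to 48 h in the first WT series (x axis) against WT Rep. 2 (y axis) for the 465 genes with values above 0 in both tables, with the line of equality dashed. POU3F1, SOX3 and OTX2 are marked, and POU3F1 at -2.31 and -0.14 lies furthest of the 3 from the line.

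OTX2 was the only one of the 5 genes with an SP5 summit within 100000 bases of its start site. In the list made against the Wnt3a-treated control library, which holds 540 peaks, 6.59% of protein-coding genes had a summit so near, so 1 of 5 rests on a single peak. The peak spans chr14:57322106-57323102 (GRCh37), with its summit 39232 bases upstream of the OTX2 start site, which is the nearest protein-coding start. The summit lies inside the long non-coding RNA genes OTX2-AS1 and ENSG00000258776. It was supported by 31 tags, a 7.37-fold enrichment over control and a score of 68.6, a score that grows as the peak caller's p-value shrinks. That gave it rank 172 by score, above 68.1% of the list, whose median was 27 tags. Its false discovery rate was 27.9%, against a list median of 39.7%, and it is not among the 53 peaks at 5% or below.

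The list made against the buffer-treated control, in which 6.05% of genes had a summit within the window, held no peak overlapping this interval, and its nearest to OTX2 was 2.35 Mb away. The headers of both lists name the same ChIP library, from Wnt3a-treated cells and labelled H9, another embryonic stem cell line, so the 2 lists differ in their control library and are not 2 measurements of binding. For the other 4 genes the nearest summit of the first list was 0.895 Mb from ZIC2, 3.08 Mb from SOX3, 5.37 Mb from POU3F1 and 32.5 Mb from SOX11. No SP5 peak therefore lay near POU3F1 or SOX3, and a peak under the threshold of the caller would not be listed.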

How the data were processed

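RNA-Seq of H1 cells was aligned to hg19 (GRCh37) with TopHat and quantified with Cuffdiff by the authors; per the submitters' processing notes Bowtie 0.12.7, SAMtools 0.1.12a and MACS 1.4.2 were used, and other versions are not given in the sources used here. RPKM of the first WT series were deposited to 1 decimal. The deposited tables of that series as a fraction of each gene's maximum were not used here. In the deposited mutant table each WT Rep. 2 value is a fraction of that gene's WT Rep. 2 maximum, and each clone value a ratio to the same maximum. Each deposited peak has a count of ChIP tags, a score made from its p-value, a fold enrichment and a false discovery rate as a percent. Rounding of the mutant table to 2 decimals limits its low values.

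Log2 changes were computed after adding 1 RPKM, or 0.05 in the mutant table, and called at 2-fold. Changes from a series' own 0 h library had no pseudocount and were tested with limma 3.58.1 in R 4.3.3, a test chosen after seeing the data. The 2 WT series are WT replicates by label, and nothing says that they came from separate cultures. Levels set across tables used only these ratios, as the tables were scaled separately. Peaks were compared with GENCODE release 44 mapped to GRCh37, and promoters were taken from RefSeq (GRCh38.p14), which held 4 of the 5 genes. Python 3.11.15, numpy 2.4.6 and pandas 2.3.3 were used, and the calculations were checked on simulated data. Genes were named where they are members, paralogs of a member, list genes past 2-fold at 48 h, or the 5 genes most similar to a member. Other list genes were named after their values were seen. A further gene is not reported here. The members and lists were chosen with earlier results of these data known. Alternatives were other pseudocounts, a minimum RPKM of 10, rescaling, each clone or WT series left out, and other peak windows, limits and start sites.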

Additional observations from a re-analysis of the deposited data

Results flagged for a closer look

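POU3F1 was above WT Rep. 2 in both clones at 0, 12 and 24 h and below it in both at 48 h, so that every clone library pointed one way at the earlier times and the opposite way at the last. In dZF1 and dZF2, ratios as high were held by 9.86% and 6.44% of genes at 0 h. At 12 h the shares were 3.22% and 12.7%, and at 24 h 40.2% and 32%. At 48 h ratios as low were held by 17.1% and 20.7%. The mean log2 ratio of both clones against WT at 48 h minus that at 0 h was -1.36. The same difference was -1.51 from 12 h and -1.12 from 24 h. With 1 library for each line and time these differences were not tested. All rest on the same 4 libraries of WT Rep. 2 and share its 48 h library. At 48 h POU3F1 was at 91% of its 0 h level in WT Rep. 2 and at 20.1% in the first WT series. The clones, at 37.7% and 30.2%, lay between the WT series.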

How the results depend on the processing

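Depth is unknown, and each value rests on 1 library. The counts moved most with the pseudocount. At 12 h of the first WT series, members called numbered 2 in place of 0 with a pseudocount of 0.1 or none, and all genes called numbered 353 and 341, against 42 with a pseudocount of 5 and 97 with a highest RPKM of at least 10. At 24 h a pseudocount of 5 left 1 member called and 155 genes, and the minimum of 10 RPKM left 245 genes. At 48 h those settings left 342 and 479 genes, and the members called did not change in number. Against WT Rep. 2, a pseudocount of 0.2 gave 20 genes called in dZF1 and 29 in dZF2 at 0 h, 19 and 43 at 12 h, 52 in dZF1 at 24 h, and 45 and 56 at 48 h, with 0 members called in dZF1 at 48 h. The member with an SP5 peak was lost, leaving 0, with the buffer-treated control list and with a limit of 5% on the false discovery rate. Dividing each series by its own 0 h library moved the POU3F1 mean of both clones to 0.16, -0.22 and -1.31 at 12, 24 and 48 h, SOX3 to 0.53 at 12 h and OTX2 to 0.64 at 48 h. With a pseudocount of 5 the SOX3 change at 24 h was -0.90, no longer called. Taking 1 WT series alone, the POU3F1 change ranged from -1.67 to -0.42 at 24 h and from -2.31 to -0.14 at 48 h. ZIC2 and SOX11 have no replicate. With the replicate block, which the limma test holds by using changes within a series, the mean WT changes at 12, 24 and 48 h were -0.77, -1.04 and -1.22 for POU3F1, -0.95, -1.17 and -1.63 for SOX3 and -0.28, 0.28 and 0.96 for OTX2. An unblocked fit would have to set levels of the 2 WT tables together, which are scaled apart.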
